A study of Mus musculus with 6 samples.

Results

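The nuclear genes of the mitochondrial respiratory chain and ATP synthase were examined in mouse B cells that carry or lack the receptor GPR174. They were taken from the count table by symbol, as all rows beginning Nduf followed by a, b, c, s or v, the rows Sdha to Sdhd, and all rows beginning Uqcr, Cox4 to Cox8 or Atp5. This gave 84 of the 12431 genes in the table. By known function, 76 encode subunits of complexes I to V and 7 encode assembly or supercomplex factors. The other one, Cox4nb, is the ER membrane protein complex gene Emc8 under an older symbol and belongs to the chain in name only. Ndufa4 was counted under complex IV, where its product is now placed, and Atp5sl, an older symbol of Dmac2, under complex I assembly.

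The respiratory chain sits in the inner mitochondrial membrane. Complex I (NADH dehydrogenase) and complex II (succinate dehydrogenase) pass electrons to ubiquinone, complex III (cytochrome bc1) passes them on to cytochrome c, and complex IV (cytochrome c oxidase) reduces oxygen. Complexes I, III and IV pump protons, and complex V (ATP synthase) uses the gradient to make ATP. Most subunits are nuclear encoded, while the mitochondrial genome supplies the most hydrophobic ones of every complex except complex II. Resting lymphocytes obtain much of their ATP from this pathway.

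Follicular B cells (CD21/35- CD23+) were sorted from spleens of adult male mice and frozen after 1 h of culture in complete medium without stimulation. There were 3 libraries from WT mice (Gpr174+/Y) and 3 from knockout (KO) mice (Gpr174-/Y), in which tdTomato replaces the single coding exon of Gpr174. The gene lies on the X chromosome and encodes a receptor for lysophosphatidylserine. The knockout is germline, so every cell type of these mice lacked the receptor, and all mice were otherwise untreated. Neither the labels nor the study's methods say whether each 1 h library came from its own mouse, so p-values measure the spread between these libraries. The comparison asks which transcripts differ with the receptor early in culture.

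Each library held 8452460 to 10944833 reads counted at the 3′ ends of transcripts. Levels are given as CPM (counts scaled to a common library size by TMM factors) and were not divided by gene length, since a 3′ library counts about one position per transcript. Gpr174 itself was at 135.9, 125.5 and 121.5 CPM in WT replicates 1 to 3 and at 99.8, 100.2 and 99.8 CPM in KO replicates 1 to 3. All WT values were above all KO values (log2 fold change 0.35, edgeR adjusted p = 0.0359, up to 0.168 with one library left out). The table holds no read positions, and the libraries were primed at transcript ends while the replaced part is the coding exon, so these counts do not check the deletion. The B cell markers Ms4a1 and Cr2 were abundant. Markers of other cells were summed over each list. T cell markers (5 of 7 in the table) gave 4.77 to 11.01 CPM in WT and 4.28 to 7.52 CPM in KO, and myeloid markers (8 of 8) gave 40.9 to 61.4 and 39.3 to 46.4 CPM. NK cell markers (4 of 5) gave 7.83 to 12.3 CPM in WT and 5.36 to 5.64 CPM in KO, and plasma cell markers (5 of 5) gave 448.8 to 528.2 and 559.8 to 622.8 CPM, mostly from Irf4, which B cells also express. Erythroid markers (3 of 6) ranged from 2679 to 4714 CPM in WT and from 3010 to 7569 CPM in KO. No gene in the count table totalled fewer than 10 counts. A marker absent from it may have fallen under that floor or not been in the annotation, and these cannot be told apart. The part of the listed markers in the results was not tested.

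At 1 h, none of the respiratory chain genes passed the test between WT and KO. Of the 84, 81 had enough counts to be tested, and 0 of these 81 had an adjusted p under 0.05 by edgeR's quasi-likelihood test, where 1.82% of all 10514 tested genes did (1.3% higher and 0.514% lower in WT). At an unadjusted p under 0.05 there were 12 (14.8%), 5 higher and 7 lower in WT, against 11.9% of all tested genes (6.5% higher and 5.37% lower). By DESeq2, the study's tool, 1 gene passed, Ndufa4, among the 75 with an adjusted p, against 3.11% of all genes. With edgeR restricted to genes averaging 50 counts or more, Ndufa4 passed too (2.6% of all genes), and without KO replicate 1 only Atp5sl did (1.24%). By limma-voom 0 passed. WT and KO libraries did not overlap for 14 of 81 genes (17.3%), against 16.7% of all tested genes. WT was above for 6 of them, Ndufa4, Uqcrfs1, Uqcrb, Ndufb2, Cox7c and Atp5g2 (8.43% of all genes), and below for 8, Ndufb4, Ndufs6, Ndufs7, Ndufs8, Uqcr10, Uqcrc1, Cox7a2l and Atp5b (8.28%). The shares at an unadjusted p and without overlap lay near those of all genes.

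The differences were also small. The median log2 fold change (WT over KO) was -0.03 over the 81 genes, with the middle of the distribution between -0.16 and 0.06, against a median of -0.003 over all tested genes. By sign, 34 were positive and 47 negative. The 95% interval of the log2 fold change lay within 0.5 of zero for 63 of 81 genes (77.8%), against 47.2% of all tested genes, and within 1 of zero for 75 (92.6%), against 77.8%. Chain genes were counted more deeply than most, with a median level of 86.7 CPM against 26.9 CPM and a median standard error of 0.10 against 0.17 on the log2 scale. For most of the chain the data therefore bound the difference to less than 0.5 on the log2 scale, while for the others they do not.

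**Figure D1:**
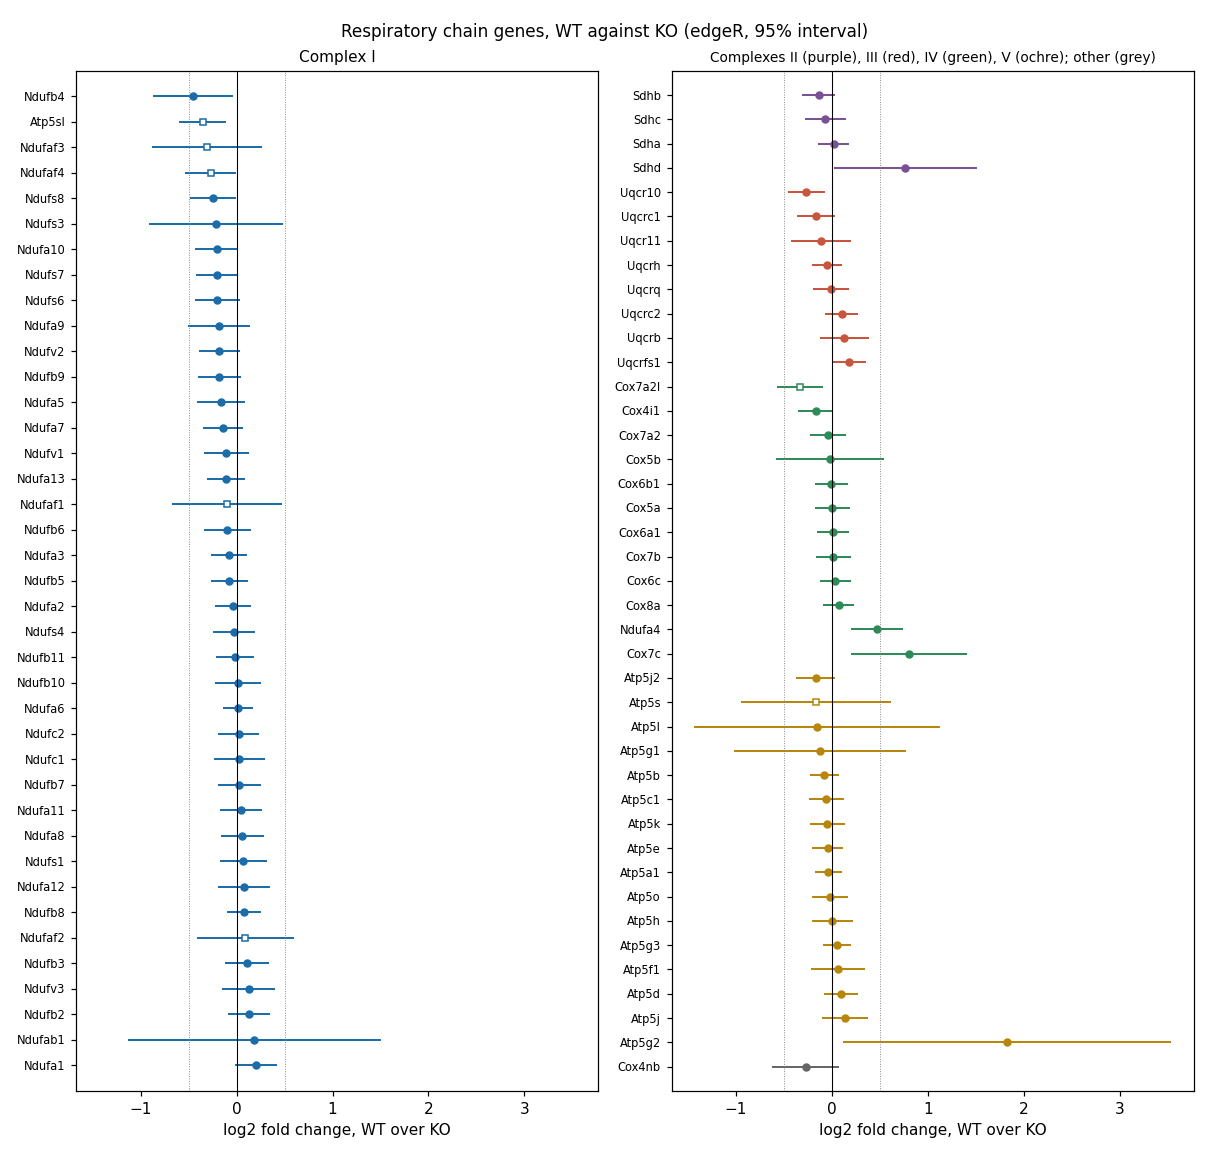
Log2 fold change (WT over KO, x axis) with its 95% interval for the tested genes (rows, 1 left out), complex I on the left and complexes II to V with Cox4nb on the right; open squares are assembly factors and dotted lines mark 0.5 on either side of zero. Most points lie near zero with intervals inside the dotted lines, and the widest intervals belong to genes with few counts such as Atp5g2 and Ndufab1.

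One library stood apart for these genes. In WT replicate 2 the chain genes took 0.949% of all counts, against 1.02 to 1.05% in the other 5 libraries, and this library was the lowest of the 6 for 41 of 81 genes. Its median deviation from the gene's mean over libraries was -0.09 on the log2 scale, whereas the median over all genes in that library was 0.00. Without it, the median log2 fold change of the 81 genes was 0.00 in place of -0.03.

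Summed over subunits, WT and KO libraries overlapped for every complex. The 35 complex I subunits summed to 3230, 2975 and 3251 CPM in WT replicates 1 to 3 and to 3215, 3234 and 3264 CPM in KO. The 4 complex II subunits summed to 554.4, 577.2 and 594.7 CPM in WT and to 579.4, 566.1 and 624.8 CPM in KO. WT replicate 2 was the low value for complex I but not for complex II. The 8 complex III subunits gave 1299, 1232 and 1384 CPM in WT and 1293, 1344 and 1348 CPM in KO. Cyc1, the cytochrome c1 gene, does not match the symbols and is not in this sum. Its log2 fold change was 0.06, with an edgeR adjusted p of 0.885. The 14 complex IV subunits gave 2152, 1949 and 2230 CPM in WT and 2052, 2146 and 2132 CPM in KO. The 15 complex V subunits gave 2788, 2603 and 2789 CPM in WT and 2773, 2724 and 2787 CPM in KO. WT replicate 2 was the lowest library of each of complexes III, IV and V. Atp5mpl, a complex V gene held as 2010107E04Rik, does not match the symbols and is not in the complex V sum. Its log2 fold change was -0.10, with an edgeR adjusted p of 0.714.

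**Figure D2:**
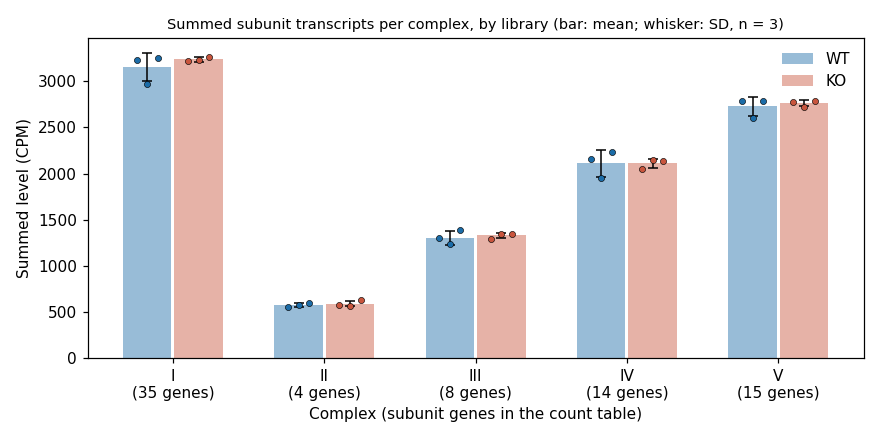
Summed CPM of the subunit genes of complexes I to V (x axis, with the number of genes) by library; bars are means, whiskers SD (n = 3 per group) and points single libraries. WT and KO points overlap for every complex, and the lowest point of complexes I, III, IV and V is WT replicate 2.

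Complex I had 40 genes, all tested, with a median log2 fold change of -0.07, or -0.03 without WT replicate 2. The 7 core subunits, which hold the flavin, the iron-sulfur clusters and the ubiquinone site, had no member past the test. Of their log2 fold changes 6 of 7 were negative, where 5297 of all 10514 tested genes were. The core median was -0.18, or -0.12 without WT replicate 2. The core sum was 465.7, 442.8 and 460.9 CPM in WT and 488.4, 494.2 and 515.2 CPM in KO. Every WT sum was below every KO sum, by 0.13 on the log2 scale between the group means. Taken singly, 2 of the 7 core genes did not overlap (28.6%), against 16.7% of all tested genes. Of the 28 accessory subunits, 14 log2 fold changes were positive and 14 negative. 

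Ndufv1, the core subunit that binds NADH and flavin, was at 63.7, 56.0 and 60.5 CPM in WT and 63.6, 64.5 and 66.2 CPM in KO, with a log2 fold change of -0.11 ± 0.11 (SE), or -0.06 without WT replicate 2. Ndufs1, the largest iron-sulfur subunit, was at 61.3, 77.3 and 64.8 CPM in WT and 61.5, 63.3 and 68.7 CPM in KO. For both genes the WT and KO libraries overlapped.

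Ndufs8, an iron-sulfur core subunit, showed the smallest p of the core set. Its levels were 81.3, 64.5 and 90.1 CPM in WT and 94.5, 91.1 and 94.5 CPM in KO, with all WT values below all KO values. The log2 fold change was -0.25 ± 0.11, and the edgeR adjusted p of 0.360 did not pass. Without WT replicate 2, the low value, the log2 fold change was -0.12, and without WT replicate 3 it was -0.35. Ndufs7, its neighbour in the electron path, was at 74.2, 68.6 and 67.3 CPM in WT and 79.0, 76.0 and 87.2 CPM in KO, again without overlap (log2 fold change -0.20, edgeR adjusted p = 0.444). Ndufv2 had a log2 fold change of -0.18 with overlapping libraries.

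Among accessory subunits, Ndufa6 and Ndufa2 were the most abundant. Ndufa6, which has an LYR motif, was at 278.3, 262.1 and 286.9 CPM in WT and 268.3, 274.9 and 274.2 CPM in KO. Ndufa2 was at 283.7, 213.5 and 264.0 CPM in WT and 251.8, 269.4 and 259.0 CPM in KO. Their log2 fold changes were 0.02 ± 0.07 and -0.03 ± 0.09. The smallest p for a complex I subunit belonged to Ndufb4 on the lower side. Ndufb4, a membrane-arm subunit, was at 14.4, 12.5 and 15.7 CPM in WT and 19.93, 19.95 and 18.5 CPM in KO. The libraries did not overlap, and the log2 fold change of -0.46 ± 0.20 had an edgeR adjusted p of 0.336. On the higher side it was Ndufa1, an X-linked subunit needed for assembly, with 95.1, 108.5 and 105.4 CPM in WT and 102.5, 82.9 and 83.1 CPM in KO. Its WT and KO values overlapped (log2 fold change 0.20 ± 0.10, edgeR adjusted p = 0.453).

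Complex II consists of 4 nuclear-encoded subunits and is also the succinate dehydrogenase of the citrate cycle. Sdha, the flavoprotein, was the most abundant at 283.2, 299.0 and 314.5 CPM in WT and 297.7, 274.4 and 311.8 CPM in KO. Sdhb, the iron-sulfur subunit, was at 185.4, 182.1 and 199.7 CPM in WT and 193.9, 208.1 and 222.4 CPM in KO. Sdhc, a membrane anchor with part of the heme site, was at 79.0, 80.5 and 74.4 CPM in WT and 82.3, 76.0 and 87.0 CPM in KO. All 3 overlapped between genotypes, with log2 fold changes of 0.02 ± 0.07, -0.14 ± 0.08 and -0.07 ± 0.10.

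Sdhd, the other membrane anchor, was counted far less than its partners. It was at 6.86, 15.6 and 6.13 CPM in WT and at 5.55, 7.63 and 3.61 CPM in KO. One WT library, replicate 2, was above all others, and the rest overlapped. The log2 fold change of 0.77 ± 0.36 had an edgeR adjusted p of 0.401, and without WT replicate 2 it was 0.22. The order of the transcript counts was Sdha, Sdhb, Sdhc and Sdhd in every library, without overlap between neighbouring genes.

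In complex III, 1 of 8 genes was higher and 1 lower in WT at an unadjusted p under 0.05. Of all tested genes 6.5% were higher and 5.37% lower at that threshold. WT and KO did not overlap for 4 of the 8, with WT above for 2 and below for 2, against 16.7% of all tested genes. None of the 8 passed the test. Uqcrfs1, the Rieske iron-sulfur protein that hands electrons to cytochrome c1, was at 150.7, 155.9 and 158.0 CPM in WT and 136.5, 139.8 and 134.7 CPM in KO. All WT libraries were above all KO libraries, by a log2 fold change of 0.18 ± 0.08 with an edgeR adjusted p of 0.392. Uqcr10, a small accessory subunit next to the Rieske protein, went the other way at 127.2, 112.8 and 132.4 CPM in WT and 144.2, 147.8 and 156.5 CPM in KO. Its libraries did not overlap either, and the log2 fold change was -0.27 ± 0.09 (edgeR adjusted p = 0.150).

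The genes of the large core proteins of complex III had log2 fold changes of opposite sign, and neither passed the test. Uqcrc1 was at 113.7, 105.7 and 114.2 CPM in WT and 116.0, 128.3 and 129.9 CPM in KO, with WT below KO (log2 fold change -0.17, edgeR adjusted p = 0.497). Uqcrc2 was at 209.3, 191.2 and 203.1 CPM in WT and 191.3, 185.8 and 186.3 CPM in KO, with a log2 fold change of 0.10. The WT and KO values of Uqcrc2 overlapped only by WT replicate 2, which was just under KO replicate 1. Uqcrh, the hinge protein that binds cytochrome c1, was the most abundant of the complex at 437.4, 439.3 and 514.1 CPM in WT and 457.6, 502.6 and 480.2 CPM in KO.

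Complex IV held the gene with the smallest p of all 81. Ndufa4, an accessory subunit first assigned to complex I, was at 48.8, 57.1 and 50.2 CPM in WT and at 39.0, 35.5 and 38.3 CPM in KO. All 3 WT libraries were above all 3 KO libraries. The log2 fold change was 0.47 ± 0.13, with a 95% interval of 0.21 to 0.72, an unadjusted p of 0.00105 and an edgeR adjusted p of 0.0534. The gene lay just outside the threshold by edgeR and inside it by DESeq2 (adjusted p = 0.0312). With each library left out in turn, its edgeR adjusted p ranged from 0.0685 to 0.239.

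Cox5a, a subunit next to the catalytic core of complex IV, was at 240.2, 199.9 and 237.6 CPM in WT and 213.1, 243.3 and 219.5 CPM in KO, a log2 fold change of 0.00 ± 0.08. Cox6a1 and Cox6c, the most abundant of the complex, had log2 fold changes of 0.01 ± 0.08 and 0.04 ± 0.07. Cox8a was at 0.07 ± 0.08. Cox4i1, the subunit at which ATP inhibits the enzyme, was at 271.6, 249.7 and 318.7 CPM in WT and 309.2, 336.2 and 300.7 CPM in KO. Its values overlapped, and the log2 fold change of -0.17 ± 0.08 had an edgeR adjusted p of 0.413 and was -0.10 without WT replicate 2. Cox4nb starts inside the first part of Cox4i1 on the opposite strand of chromosome 8, so the genes overlap at their starts and not at the 3′ ends where reads were counted. It was at 25.1, 21.2 and 25.4 CPM in WT and 33.0, 24.97 and 28.6 CPM in KO.

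**Figure D3:**
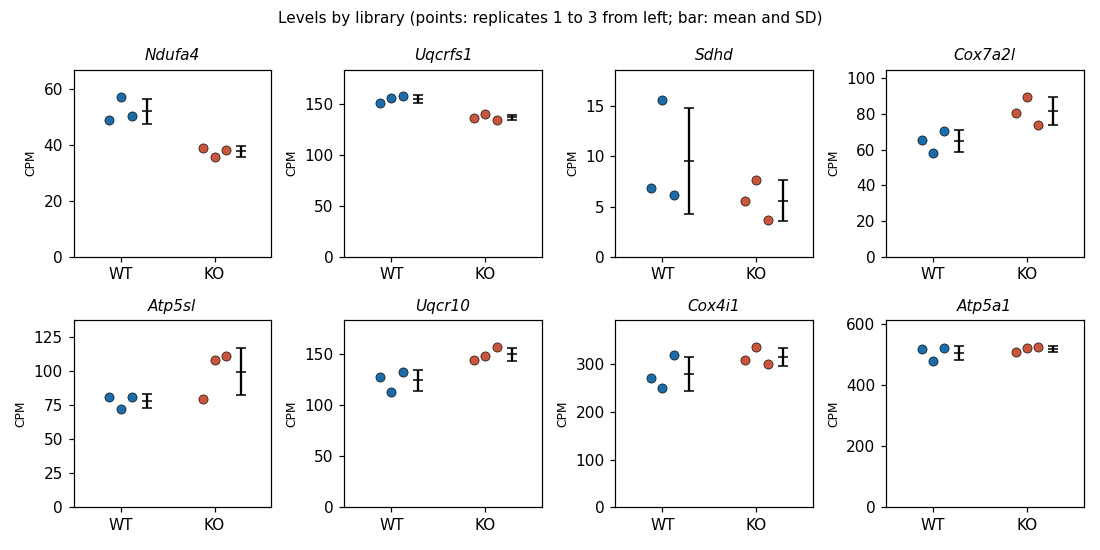
CPM by library (y axis, from 0) for 8 genes of complexes II to V and of assembly in WT (blue) and KO (red); points are replicates 1 to 3 from left, and bars are mean and SD (n = 3). WT and KO do not overlap for Ndufa4, Uqcrfs1, Cox7a2l and Uqcr10, whereas the Sdhd difference rests on WT replicate 2.

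In complex V, the catalytic F1 subunits were at nearly equal levels in the genotypes. Atp5a1 (alpha) was at 517.2, 476.8 and 519.1 CPM in WT and 507.1, 521.9 and 523.9 CPM in KO. Atp5b (beta), which holds the catalytic sites, was at 383.4, 379.6 and 386.3 CPM in WT and 394.8, 392.4 and 426.8 CPM in KO. Atp5b did not overlap, but its log2 fold change was only -0.08 ± 0.07 with an edgeR adjusted p of 0.717, and that of Atp5a1 was -0.04 ± 0.07. Among the stalk and membrane subunits, the smallest p on the lower side was that of Atp5j2 (subunit f), whose log2 fold change was -0.17 ± 0.09 (edgeR adjusted p = 0.495), or -0.10 without WT replicate 2 and -0.26 without WT replicate 3.

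The 7 assembly and supercomplex factors had no member past the test, and 6 of 7 log2 fold changes were negative, with a median of -0.27. Their summed level was 216.8, 208.1 and 241.6 CPM in WT and 249.4, 287.7 and 280.8 CPM in KO, so all WT libraries were below all KO libraries. The sum is dominated by 3 genes, each lower in WT at an unadjusted p under 0.05, as 5.37% of all tested genes were. Taken singly, 1 of the 7 factors did not overlap (14.3%), against 16.7% of all tested genes. Atp5sl, which is needed for a late membrane-arm step of complex I, was at 80.5, 71.8 and 80.9 CPM in WT and 79.6, 107.9 and 110.9 CPM in KO. KO replicate 1 lay among the WT values. Its log2 fold change was -0.35 ± 0.11 with an edgeR adjusted p of 0.137, and without KO replicate 1 it was -0.49 with an adjusted p of 0.0241.

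Cox7a2l (also called SCAF1), which links complexes III and IV into supercomplexes, was at 65.1, 58.1 and 70.4 CPM in WT and 80.6, 89.5 and 73.9 CPM in KO. The WT libraries were all below the KO libraries, the log2 fold change was -0.33 ± 0.11 and the edgeR adjusted p was 0.150. Ndufaf4, a chaperone of the complex I peripheral arm, was at 40.5, 40.0 and 48.9 CPM in WT and 54.6, 48.7 and 52.7 CPM in KO, with a single WT library within the KO range (log2 fold change -0.27, edgeR adjusted p = 0.388). The other 4 factors were at 16.9 CPM or less in every library and overlapped. Ndufaf5, Ndufaf6, Ndufaf7 and Ndufaf8, held in the count table under older symbols, are neither among these 7 nor in the wider list that follows. Their log2 fold changes were -0.18, -0.15, -0.13 and 0.08, and none passed the test. In a wider list of 42 tested assembly factors with other symbols, 0 passed, where 1.82% of all tested genes did. In this list 23 log2 fold changes were positive and 19 negative, and the median was 0.03. Its members with the smallest p were both higher in WT, the copper chaperone Cox17 with a log2 fold change of 0.29 (edgeR adjusted p = 0.150) and the heme A synthase Cox15 with 0.51 (0.151, or 0.0275 without WT replicate 2).

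Several subunits exist as isoforms from separate genes, and one gene of each group held nearly all counts. Of the 3 genes for the identical mature c subunit of ATP synthase, Atp5g3 held 98.9 to 99.3% of the counts in each library, a share that is uncertain because 98.4% of the 3′ end windows of Atp5g2 and 20.3% of those of Atp5g1 are also in other genes. Cox6a1 held 99.8 to 100% against Cox6a2, the heart and muscle form. Cox6b1 held 99.2 to 99.9% against Cox6b2, the testis form. Cox7a2 held 99.3 to 100% against Cox7a1, another heart and muscle form. Cox6a2, Cox6b2 and Cox7a1 were the 3 genes with too few counts to test, each under 2 CPM in every library. These shares did not separate WT from KO, and exact (Clopper-Pearson) 95% intervals on them were narrower than 1 percentage point.

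A few subunits that every cell needs were nevertheless counted at low levels. For each gene, the last 300 bases of its transcript were split into overlapping windows of 50 bases, the read length, and each window was looked up in all other annotated genes. Of the 84 genes, 23 shared windows with another gene, in 22 cases a pseudogene copy. In 4 of them at least 50% of windows were shared: Cox7c (99.2%), Atp5g2 (98.4%), Atp5l (70.1%) and Ndufs3 (53.0%). These 4 were at 0.909 to 8.39 CPM, against a median of 86.6 CPM for the 19 genes with fewer shared windows and 87.5 CPM for the 61 with none. A read from such a window has more than one possible origin, so the levels and folds of these 4 genes are uncertain. In addition, 32 of the 84 genes overlap a gene on the opposite strand somewhere along their length, and since strand use in counting was not stated, reads from such overlaps cannot be told apart. Cox5b, Sdhd and Ndufab1 were also low, at 8.30, 7.57 and 1.86 CPM, with no shared window. Atp5g1 was at 3.73 CPM with 20.3% of windows shared.

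**Figure D4:**
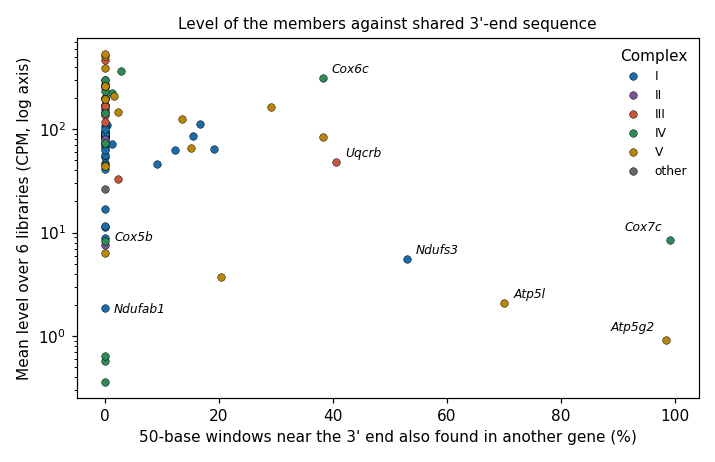
Mean CPM over the 6 libraries (y axis, log scale) against the percent of 50-base windows in the last 300 transcript bases that are also in another annotated gene (x axis), for the 84 genes coloured by complex. The 4 genes with at least 50% shared windows all lie below 10 CPM, while genes with fewer or none span the whole range.

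The 2 largest fold changes in the set were those of genes of this kind. Cox7c, a small complex IV subunit, was at 8.78, 13.8 and 9.42 CPM in WT and 4.64, 6.76 and 6.92 CPM in KO. The libraries did not overlap, and the log2 fold change of 0.80 ± 0.29 had an edgeR adjusted p of 0.203. Atp5g2, one of the c subunit genes, was at 1.83, 1.07 and 1.36 CPM in WT and 0.364, 0.436 and 0.390 CPM in KO, a log2 fold change of 1.82 ± 0.83 with an edgeR adjusted p of 0.373. The Atp5g2 values rest on 4 to 20 reads per library and those of Cox7c on 51 to 116.

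The promoters of these genes were read for motifs of factors known to act on respiratory chain genes and on cAMP targets, since GPR174 is known to couple to the G protein subunit that raises cAMP. RefSeq promoters (GRCm38.p6, the assembly of mm10, 250 bases before to 50 after the start) were found for 71 of the 84 genes and for 9881 genes of the count table, and both strands were searched. The palindrome of nuclear respiratory factor 1 (GCGC, any base, then TGCGC) was in 22.5% of chain promoters and 10.8% of all. A YY1 motif (AAGATGG followed by CGGC) was in 7.04% and 1.72%. An ETS motif (CCGGAAG), the kind bound by GABP, was in 22.5% and 18.9%, and a GC box (GGGCGG) in 45.1% and 63.1%. The full cAMP response element (TGACGTCA) was in 4 chain promoters (5.63%) and in 3.31% of all.

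Those 4 promoters are shown because the cAMP response element bears on the question, with Sdha for its 3 NRF1 matches, a number that Ndufb4 also had, and Ndufa4 for the smallest p. The 250 bases before the start are given in the direction of the gene, and capitals mark matches to the NRF1, YY1, ETS or cAMP motifs.
Ndufa10 (chr1:92473759-92474008, minus strand): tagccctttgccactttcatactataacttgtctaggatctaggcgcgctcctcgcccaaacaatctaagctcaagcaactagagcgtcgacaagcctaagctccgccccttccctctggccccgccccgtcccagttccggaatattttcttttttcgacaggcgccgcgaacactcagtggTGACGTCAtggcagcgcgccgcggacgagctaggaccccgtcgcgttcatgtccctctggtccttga
Ndufa11 (chr17:56717512-56717761, plus strand): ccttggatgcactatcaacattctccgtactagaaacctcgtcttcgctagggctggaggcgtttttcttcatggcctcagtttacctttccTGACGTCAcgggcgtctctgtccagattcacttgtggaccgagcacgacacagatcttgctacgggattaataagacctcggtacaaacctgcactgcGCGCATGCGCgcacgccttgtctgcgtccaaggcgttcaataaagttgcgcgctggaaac
Ndufb2 (chr6:39592315-39592564, plus strand): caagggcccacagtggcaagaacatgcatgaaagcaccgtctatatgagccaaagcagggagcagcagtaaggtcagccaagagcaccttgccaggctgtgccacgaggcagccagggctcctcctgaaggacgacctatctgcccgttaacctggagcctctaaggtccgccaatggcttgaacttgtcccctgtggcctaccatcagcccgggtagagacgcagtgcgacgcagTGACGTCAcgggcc
Uqcrfs1 (chr13:30545317-30545566, minus strand): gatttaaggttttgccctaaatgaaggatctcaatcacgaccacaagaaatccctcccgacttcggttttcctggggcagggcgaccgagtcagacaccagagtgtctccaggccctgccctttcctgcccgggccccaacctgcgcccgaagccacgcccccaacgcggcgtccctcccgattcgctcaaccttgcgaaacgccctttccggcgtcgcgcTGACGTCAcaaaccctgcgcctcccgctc
Sdha (chr13:74350241-74350490, minus strand): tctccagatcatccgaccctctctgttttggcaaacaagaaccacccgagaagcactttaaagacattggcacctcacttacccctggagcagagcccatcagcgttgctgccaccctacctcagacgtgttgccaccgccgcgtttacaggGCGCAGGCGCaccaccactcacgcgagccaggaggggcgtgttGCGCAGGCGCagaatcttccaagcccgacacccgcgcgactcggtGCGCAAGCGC
Ndufa4 (chr6:11907451-11907700, minus strand): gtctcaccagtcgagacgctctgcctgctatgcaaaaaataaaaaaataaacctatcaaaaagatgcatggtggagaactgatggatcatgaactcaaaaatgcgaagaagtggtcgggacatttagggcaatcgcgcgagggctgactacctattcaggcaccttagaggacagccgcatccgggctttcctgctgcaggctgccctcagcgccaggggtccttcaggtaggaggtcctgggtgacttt

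The cAMP element begins 67 bases before the start in Ndufa10, 158 in Ndufa11, 14 in Ndufb2 and 29 in Uqcrfs1. The log2 fold changes of these genes were -0.21, 0.05, 0.13 and 0.18 in the same order, and none passed the test. In Ndufb2 and Uqcrfs1 the WT libraries were all above the KO libraries, as for 8.43% of all tested genes. In Ndufa10 and Ndufa11 they overlapped. Whether the element has a part in these values was not tested. Ndufb2, a small membrane-arm subunit, was at 76.2, 77.4 and 72.7 CPM in WT and 70.2, 67.5 and 69.0 CPM in KO (edgeR adjusted p = 0.684). The Ndufa4 promoter held no match to any of the marked motifs. A match describes the letters in the window and is no evidence of binding in these cells.

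Around the chain, single genes passed the test while the medians of the lists were near zero. Of all 10514 tested genes, 1.82% passed. None of the 17 citrate cycle genes (median log2 fold change 0.04) and none of the 73 tested mitochondrial ribosomal protein genes (median 0.01) passed. Of 22 genes for ubiquinone synthesis, cytochrome c and other electron carriers, 1 passed: Coq10b, a ubiquinone-binding protein, at 24.9, 18.7 and 19.8 CPM in WT and 10.47, 10.9 and 11.5 CPM in KO. It was higher in every WT library (log2 fold change 0.95, edgeR adjusted p = 0.00984). The call was lost without WT replicate 1, KO replicate 1 or KO replicate 2, at an adjusted p of up to 0.0858. Cycs, the somatic cytochrome c gene, was at 0.25 with an adjusted p of 0.791.

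Of 20 tested regulators of mitochondrial biogenesis, 1 passed, where 1.82% of all 10514 tested genes did. Tfam, which packages mitochondrial DNA and starts its transcription, was at 236.2, 246.3 and 270.8 CPM in WT and 208.0, 191.9 and 201.7 CPM in KO, higher in every WT library. The log2 fold change was 0.32 ± 0.08 with an edgeR adjusted p of 0.0211, and the call was lost without WT replicate 3 or any one KO library, at an adjusted p of up to 0.164. Nrf1, which encodes the factor whose motif was counted above, had a log2 fold change of -0.34 and Gabpb2, a GABP subunit, one of 0.32, and neither passed (edgeR adjusted p of 0.193 and 0.0888). Of 14 tested glycolysis genes, 1 passed: the glucose transporter Slc2a1, at 94.6, 83.2 and 84.6 CPM in WT and 66.3, 66.3 and 68.4 CPM in KO (log2 fold change 0.39, edgeR adjusted p = 0.0432). Its call was lost without any library other than WT replicate 2 and under 2 other scalings. Of the 13 protein-coding genes of the mitochondrial genome, 0 were found in the count table, so the nuclear and mitochondrial parts of the chain were not compared.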

How the data were processed

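The authors prepared 3′ end libraries (QuantSeq, 50-base single-end reads), used STAR for alignment to mm10 and HTSeq for counting. Versions, annotation and strand use are not given in the sources used here. The deposited values are raw counts per gene, not normalized. Totals per library were 8452460 to 10944833, and reads without molecular identifiers are not independent molecules, so intervals on counts cover counting error only. Of the sample columns, 0 were left unused.

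The 3 WT and 3 KO libraries, grouped by title, were compared with edgeR 4.0.16 (R 4.3.3): filterByExpr, TMM factors, robust quasi-likelihood F test, two-sided, Benjamini-Hochberg adjustment over all 10514 tested genes and a threshold of 0.05. Errors on log2 fold changes are standard errors, taken as the absolute log2 fold change over the square root of F. Alternatives were DESeq2 1.42.0, limma-voom (limma 3.58.1), 3 other scalings, 2 other filters, omission of the 50 most abundant genes or of each library, an adjusted p under 0.01 and the replicate number as a block. Replicates within groups differed beyond counting noise (chi-square per degree of freedom 6.89 to 10.9). Transcript ends and gene overlaps are from GENCODE M21 (GRCm38), and promoters from RefSeq. The edgeR test was checked on simulated counts in which 200 genes averaging 200 counts or more were changed. It recovered 11% of changes of 0.3 on the log2 scale and 74% of changes of 0.6. A gene with a difference near 0.3 would therefore mostly not pass.

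The genes and lists were chosen with earlier results of these data known. Named genes were all SDH subunits, the 2 most abundant genes and the smallest p in each direction per complex, core catalytic subunits, isoform groups and assembly factors with an unadjusted p under 0.05. The other genes given with values were chosen after their values were seen. One such gene is not reported here.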

Additional observations from a re-analysis of the deposited data

How the results depend on the processing

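The count of respiratory chain genes past the threshold was 0 by edgeR and 1 (Ndufa4) with DESeq2, with a filter at a mean of 50 counts and with the replicate number as a block, and ranged from 0 to 1 when each library was left out (Atp5sl without KO replicate 1). Over all genes the 191 calls became 95 at an adjusted p under 0.01 and 281 with the replicate block, and ranged from 91 (without KO replicate 3) to 183 as libraries were left out, with 113 without KO replicate 2. Same-numbered WT and KO libraries correlated at 0.05, 0.01 and 0.04 in their deviations, under the 0.1 set for pairing, although each correlated best with its own number. These values do not settle whether same-numbered libraries were paired or handled together. The block changed no named member other than Ndufa4 (edgeR adjusted p = 0.0481).

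The sign of the log2 fold change of Cox5a turned to -0.0041 with upper-quartile scaling and -0.0014 with library totals. With single libraries left out, log2 fold changes ranged across zero for 15 of the 53 genes for which this was run: Sdha -0.0311 to 0.0619, Ndufa6 -0.0129 to 0.0521, Ndufa2 -0.122 to 0.0748, Cox6a1 -0.0539 to 0.101, Cox6c -0.0183 to 0.0878, Atp5a1 -0.0596 to 0.00108, Ndufs1 -0.0342 to 0.139, Cox5a -0.0411 to 0.0849, Atp5g1 -0.268 to 0.0863, Cox6b1 -0.0644 to 0.0479, Cox7a2 -0.107 to 0.0533, Atp5l -0.501 to 0.248, Cox5b -0.110 to 0.0909, Ndufa11 -0.0472 to 0.113 and Atp5s -0.489 to 0.135. The median over the chain genes ranged from -0.06 to 0.00. Genes under 20 CPM have intervals too wide to bound a difference of 0.5.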
